A study of Mus musculus with 80 samples.

Results

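Of 62027 autosomal windows of 500 bp that were read deeply enough in wild-type E14 embryonic stem cells (ESCs), 7 were both dense in CpG and highly methylated in serum medium. A window, here called a tile, was counted when it held 20 or more methylation calls in each of the 12 E14 libraries. It was chosen when it also held 30 or more cytosine positions in both serum libraries and had a serum methylation level of 60% or more as the mean of the replicates. The 7 tiles were thus chosen by their E14 serum methylation and position counts, and the E14 serum levels below are a description only. CpG-dense tiles of any level numbered 10213, of which 10165 were under 20% in serum and 41 lay between 20% and 60%. Highly methylated tiles of any density numbered 21878, and 17720 of them were used as a comparison list because they held fewer than 30 positions but at least 3 in every file (hereafter sparser methylated tiles). Dense and sparser here refer to cytosine positions that were read, not to CpG counts of the sequence.

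Methylation was measured by reduced representation bisulfite sequencing (RRBS), which cuts the genome at CpG-containing restriction sites and reads cytosine methylation in CpG-rich fragments. The 50 usable RRBS libraries came from mouse ESCs kept in serum medium with the cytokine LIF and from the same cells after a change to 2i, a serum-free medium with LIF and inhibitors of the kinases MEK and GSK3. Wild-type E14 cells were sampled before the change and 24, 48, 72, 96 and 168 h after it, with 2 libraries each. UHRF1 WT and UHRF1 KO, both labeled with the E14 background, were taken at the same times with 2 libraries each, except that UHRF1 WT in serum had 1 usable library because the other file held only 6 positions. In the floxed lines of the study, Cre recombinase was switched on by tamoxifen before the medium change. No RNA-seq of the KO line is in these data, so loss of Uhrf1 was not checked. TET WT and TET TKO, in which Tet1, Tet2 and Tet3 are deleted, carry the mixed background C57/129/FVB and were sampled before the change and 48, 96 and 168 h after it, with 2 libraries each except 1 for TET WT at 168 h. Nothing in the labels says whether replicates were separate cultures, so p-values measure the spread between libraries only.

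Most CpG islands, the CpG-rich stretches around many promoters, carry no methylation in ESCs. The exceptions include imprinted control regions, where the copy from one parent is methylated in the germ line, and islands inside genes or between them. Methylation is copied onto new DNA strands at replication by DNMT1, which UHRF1 brings to hemimethylated CpGs. The TET enzymes oxidize 5-methylcytosine and so oppose methylation, and wild-type ESCs lose much of their methylation in 2i.

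The positions of the 7 tiles follow the mouse build NCBIM37. They were chr7:53050501-53051000 (the chr7 tile), chr8:48732001-48732500 (chr8 first), chr8:124440001-124440500 (chr8 second), chr10:12810501-12811000 (chr10 first), chr10:86371501-86372000 (chr10 second), chr15:93331001-93331500 (the chr15 tile) and chr17:24642001-24642500 (the chr17 tile). Positions count cytosines of both strands, and the tiles held 30 to 52.5 positions in serum, belonging to 19 to 37 CpG sites. The number of positions depends on which strands were read, with 33 from 19 sites in chr7 and 30 from 28 sites in chr15. Dense and sparser tiles can thus differ in reading as well as in CpG density. A tile held 37 to 2097 calls in a library, with at least 221 in E14, 37 in the UHRF1 lines and 123 in the TET lines. PCR copies of the same fragment were counted as separate calls, so the number of calls overstates the number of molecules.

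No annotation of NCBIM37 was used, so gene starts were placed by the spacing of CpGs. RefSeq promoter sequences (250 bases before to 50 after a start) were slid along the measured CpG positions within 150000 bases on each side of a tile. A start was accepted where their spacings matched. A first search asked for 12 or more CpGs and 85% of them matched. It accepted 30 starts among 4559 promoters of the tiles' own chromosomes, and 0 among 4327 promoters of other chromosomes. Both totals are summed over the tiles, so a promoter can be counted more than once. A looser search within 60000 bases of a tile, only at the place the accepted starts gave, with 8 or more CpGs and 60% matched, added 7 starts and was not run on other chromosomes. The starts of Lmtk3, Cyth2 and Traf7 named here come from the looser search and are less certain. A start was placed inside 1 tile. Some annotated genes around the other tiles, such as Caskin1, had no start placed. All 26 CpGs of the promoter of Plagl1 fell on measured positions with its start 113 bp before the middle of the chr10 first tile. The start of Hymai, a non-coding RNA, lay 100 bp before the middle, with 26 of 27 CpGs matched. Plagl1 encodes a zinc finger transcription factor, and it is an imprinted gene whose promoter is methylated on the maternal copy. The sequence of this promoter is shown because its tile is the one in which a start was placed. It is the + strand of chr10:13090582-13090881 in GRCm38.p6, with CpGs in capitals.

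Plagl1 promoter: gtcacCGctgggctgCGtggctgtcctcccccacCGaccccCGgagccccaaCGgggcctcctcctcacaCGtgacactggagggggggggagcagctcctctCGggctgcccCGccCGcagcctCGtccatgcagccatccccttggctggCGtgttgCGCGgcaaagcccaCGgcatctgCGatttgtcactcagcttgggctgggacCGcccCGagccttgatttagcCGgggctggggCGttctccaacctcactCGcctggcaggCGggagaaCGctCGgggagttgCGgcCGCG

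Its 26 CpGs within 300 bases are reached by 16.9% of the 32851 mouse promoters in RefSeq. Around the other 6 tiles the nearest matched starts were 8518 bp away or farther. The chr7 tile lay 10034 bp after a start of Lmtk3, a gene of 21011 bases read toward the tile, and 18935 bp from the start of Cyth2. The start of Prickle1, which encodes a planar cell polarity protein, lay 18700 bp from the chr15 tile, and the gene's 97156 bases reach it. The start of the non-coding BC048644 was 8518 bp before the chr8 second tile, and its 9049 bases reach the tile. The chr17 tile lay between Mlst8 (26228 bp) and Traf7 (22632 bp), with Caskin1 annotated in the same interval. Ing2 started 28262 bp from the chr8 first tile, and Nt5dc3 130001 bp from the chr10 second tile. Whether a tile lies in an exon or an intron was not determined.

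In E14, the mean over the 7 tiles was 74.5% ± 0.817 (SD, n = 2 libraries) in serum, 82.4% ± 0.864 (24 h), 68.0% ± 0.0614 (48 h), 62.4% ± 0.261 (72 h), 58.4% ± 0.814 (96 h) and 38.0% ± 0.0994 (168 h). The step from serum to 24 h went up and all later steps of the mean went down. Sparser methylated tiles stood at 83.0% ± 0.322 in serum, 83.7% ± 1.12 at 24 h and 43.0% ± 0.352 at 168 h. The mean over CpG-dense tiles under 20% in serum was 1.09% ± 0.288 in serum and 0.398% ± 0.0136 at 168 h. Over the 10 libraries in 2i, the mean over the tiles ran with hours in 2i at Pearson's r = -0.983 and Spearman's rho = -0.985, and without the 2 farthest libraries (168 h) at r = -0.954. These correlations are a description, with no test, since libraries of 1 time point share their culture time.

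**Figure D1:**
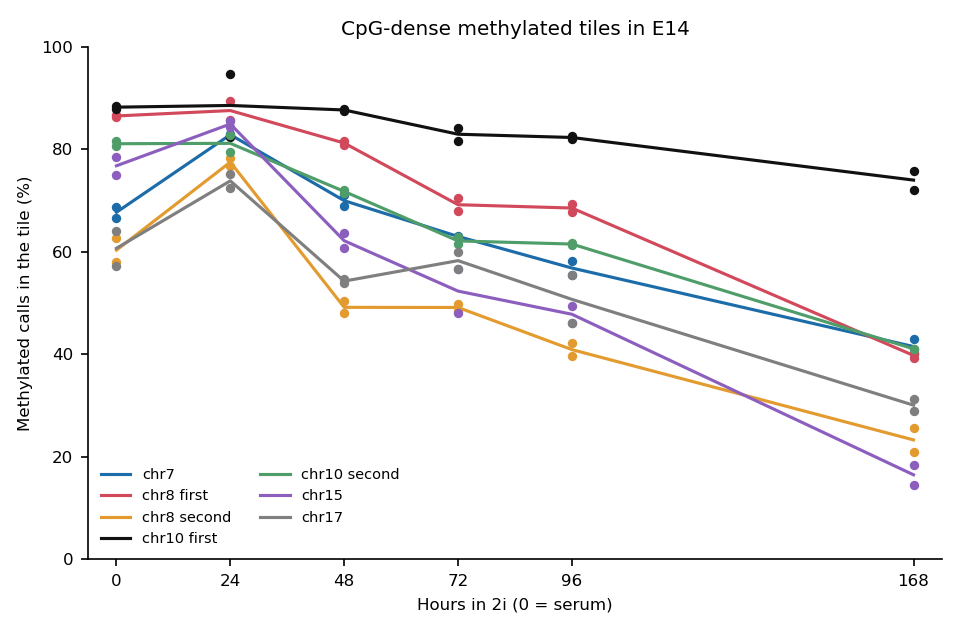
Methylated calls (percent, y axis) in each of the 7 tiles against hours in 2i (x axis, 0 is serum) in E14. Points are single libraries, 2 at each time, and lines join their means. Of the lines, 6 end between 16.5% and 41.5% at 168 h, and the line of chr10 first ends at 74.0%.

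The chr10 first tile at the start of Plagl1 moved least. Its libraries read 88.5% and 88.0% in serum, 94.7% and 82.5% (24 h), 87.4% and 88.0% (48 h), 84.2% and 81.7% (72 h), 82.7% and 82.0% (96 h), and 75.9% and 72.2% (168 h). The 168 h libraries were the lowest of the 12 and did not overlap any earlier time, whereas the 24 h libraries spanned those of serum and 48 h and 1 each of 72 h and 96 h.

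The chr15 tile moved most. It read 75.1% and 78.5% in serum, 84.4% and 85.5% (24 h), 60.8% and 63.6% (48 h), 48.1% and 56.6% (72 h), 46.1% and 49.5% (96 h), and 14.5% and 18.5% (168 h). Libraries of 72 h and 96 h overlapped, and all other neighboring times were apart. A similar course was seen in the chr8 second tile, at 62.7% and 57.9% in serum, 78.3% and 76.8% (24 h), 50.3% and 48.0% (48 h), 48.4% and 49.9% (72 h), 42.2% and 39.6% (96 h), and 20.9% and 25.7% (168 h). Here the largest single step was between 24 h and 48 h.

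The other 4 tiles ended in between. The chr7 tile read 66.6% and 68.8% in serum, 82.9% and 82.8% (24 h), 71.1% and 68.9% (48 h), 63.1% and 62.9% (72 h), 58.1% and 55.5% (96 h), and 42.9% and 40.1% (168 h). The chr8 first tile read 86.7% and 86.3%, then 85.8% and 89.4%, 81.6% and 80.9%, 70.5% and 67.9%, 67.8% and 69.3%, and 40.3% and 39.2% over the same times. The chr10 second tile, in the same order, read 81.7% and 80.6%, 79.6% and 82.8%, 71.5% and 72.0%, 61.4% and 62.8%, 61.6% and 61.4%, and 41.0% and 41.1%. In both of these tiles the libraries of serum and 24 h overlapped, and so did those of 72 h and 96 h. The chr17 tile read 64.2% and 57.2%, 75.2% and 72.5%, 53.8% and 54.7%, 60% and 56.6%, 46.0% and 55.4%, and 31.2% and 28.9%, and its 72 h libraries lay above those of 48 h and 96 h.

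From serum to 24 h, both libraries at 24 h lay above both in serum in 4 tiles, by 17.2 points in chr8 second, 15.1 in chr7, 13.2 in chr17 and 8.16 in chr15 as differences of replicate means. In the other 3 tiles the libraries overlapped. How many of all tiles were apart in this way was not counted. As a percent of serum at 24 h, chr8 second stood at 128.5%, chr7 at 122.4%, chr17 at 121.7% and chr15 at 110.6%. The other 3 stood between 100.1% and 101.2%. Sparser methylated tiles had a median of 100.2% and a 90th percentile of 114.9%. The lists were not matched on serum level, and a level cannot pass 100%. In serum the 4 tiles that rose stood at 60.3% to 76.8%, the other 3 at 81.1% to 88.2%, and sparser tiles at 83.0% on average. Because serum values chose the tiles, this step is a description and no p is given for it. Tiles just outside the rule moved in the same way. The tile at chr7:53049501-53050000 stood at 54.8% in serum, 72.7% at 24 h and 27.6% at 168 h, the one at chr2:168396501-168397000 at 47.4%, 67.4% and 21.9%, and the one at chr17:56651501-56652000 at 46.7%, 66.1% and 16.5%. Just inside were chr8 second (60.3%), chr17 (60.7%) and chr7 (67.7%). On the side of density, tiles of 29 positions at chr11:118752501-118753000 and chr19:6481001-6481500 stood at 74.2% and 73.2% in serum and at 44.0% and 35.2% at 168 h, and one of 28 positions at chr7:6084001-6084500 stood at 68.99% and 55.2%. Just inside were chr8 second and chr15 with 30 positions and chr17 with 31.5.

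Whether single tiles fell within 2i was tested against 24 h, which the rule did not use. A tile was called when a quasi-binomial model of methylated and unmethylated calls gave a Benjamini-Hochberg adjusted p under 0.05 over all 55777 tiles and the pooled difference was 20 points or more. At 168 h, 6 of the 7 tiles were called lower than at 24 h. Among all tiles 41.1% were called lower, and among sparser methylated tiles 87.6%. The differences were -68.3 points in chr15 (adjusted p = 1.2e-09), -53.3 in chr8 second (2.1e-09), -48.4 in chr8 first (1.1e-09), -44.2 in chr17 (5.1e-08), -42.0 in chr7 (2.7e-09) and -40.5 in chr10 second (2.1e-09). The chr10 first tile fell by 14.5 points (adjusted p = 0.00023 in the quasi-binomial model), under the 20 points asked for. Without the second library of 24 h this difference was -21.4 points and the tile was called.

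As a share of its 24 h level, each tile kept a different amount at 168 h. The chr10 first tile kept 83.5%, more than 93.0% of the 17720 sparser methylated tiles did. Next came chr10 second with 50.6%, chr7 with 50.1%, chr8 first with 45.4% and chr17 with 40.7%, and the median of the sparser tiles was 50.7%. The chr8 second tile kept 30.02%, and the chr15 tile 19.4%, which 7.26% of the sparser tiles fell below. These 7 values spread over much of the range of the sparser tiles, whose 10th and 90th percentiles were 22.6% and 79.0%. In the same libraries, the mean percent kept by dense tiles minus that of sparser ones was -4.12 points over the 8 libraries from 48 h to 168 h. Without the chr10 first tile it was -8.37 points. Dense tiles kept 82.6% and sparser ones 90.2% at 48 h, and 75.8% and 74.9% at 72 h, where the sign was the other. At 96 h they kept 70.9% and 75.5%, and at 168 h 46.2% and 51.3%.

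**Figure D2:**
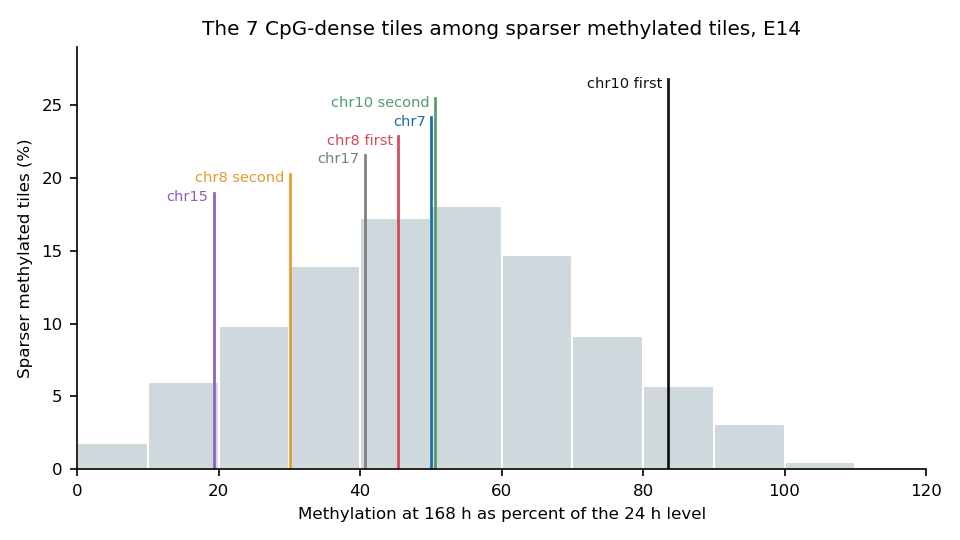
Distribution of the percent of 24 h methylation kept at 168 h in E14 (x axis) over 17720 sparser methylated tiles (gray bars, percent of tiles on the y axis). Colored lines mark the 7 CpG-dense tiles, and their heights only separate the names. The chr10 first tile stands at 83.5% and the chr15 tile at 19.4%.

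The loss was shared by nearly all positions of a tile. Positions on the same reads and both strands of a CpG are not separate observations, and positions of sparser tiles were not counted. Among positions with 5 or more calls, 31 of 31 in chr7, 28 of 28 in chr8 first, 20 of 20 in chr8 second and 22 of 22 in chr15 were lower at 168 h than at 24 h. In chr10 second 30 of 32 were lower and in chr17 20 of 21. In the chr10 first tile 37 of 42 were lower, with a median of -15.3 points, against -68.6 points in chr15. Single positions of the chr10 first tile ranged from 66.7% to 97.7% in serum and from 43.8% to 91.7% at 168 h.

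Neighboring tiles had enough calls around 3 of the 7. On the side before the chr7 tile, the 4 nearest tiles stood between 43.4% and 58.9% in serum and between 21.8% and 35.0% at 168 h. Next to the chr17 tile, the tile 500 bp before it read 70.2% in serum and 43.9% at 168 h, and the tile 500 bp after it 87.5% and 52.9%. A tile of 6.5 positions 1500 bp before the chr15 tile stood at 91.2% in serum and at 37.8% at 168 h, where the chr15 tile itself stood at 16.5%.

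Comparing UHRF1 KO with UHRF1 WT asks whether the tiles lose methylation faster without the protein that brings DNMT1 to replicated DNA. The mean over the 7 tiles in UHRF1 WT was 83.2% in serum (1 library), 80.6% ± 0.488 (24 h), 77.1% ± 2.55 (48 h), 71.1% ± 0.148 (72 h), 60.9% ± 0.923 (96 h) and 42.3% ± 0.594 (168 h), with SD over 2 libraries. In UHRF1 KO it was 76.8% ± 1.26, 63.0% ± 0.789, 51.5% ± 3.14, 42.6% ± 0.179, 36.1% ± 1.97 and 44.9% ± 3.58 at the same times. From 24 h to 96 h the KO libraries lay below the WT libraries, and at 168 h the genotypes overlapped. Averaged over times, KO minus WT was -16.8 points as a level and -17.8 points as a percent of the serum level. As a percent of serum, KO was below WT from 24 h to 96 h, where it stood at 47.0% against 73.2%. At 168 h it was above WT, at 58.5% against 50.9%. The 1015 sparser methylated tiles with enough calls in these lines stood at 68.0% ± 0.256 in WT and 37.2% ± 0.726 in KO at 96 h, and at 49.3% ± 1.21 and 45.4% ± 0.0891 at 168 h.

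The number of tiles called lower in KO was 1 of 7 in serum, where 2.13% of all 22700 tiles and 4.63% of sparser methylated tiles were called lower. UHRF1 WT in serum is 1 library, so in every test against it the spread comes from the other groups, and that library is assumed to vary like them. After 24 h in 2i it was 3 of 7 (4.44% of all tiles, 37.5% of sparser ones), and after 48 h 6 of 7 (6.94% and 78.1%). The later counts were 6 of 7 at 72 h (6.86% and 93.7%) and 5 of 7 at 96 h (5.19% and 85.5%). All tiles include the unmethylated ones, which have no methylation to lose, and beside the sparser methylated tiles the counts from 24 h on were near the background.

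Differences at 96 h were largest in 4 tiles. The chr8 second tile read 62.4% and 53.4% in WT and 21.7% and 22.2% in KO at 96 h, a difference of -36.4 points (adjusted p = 3.3e-09, quasi-binomial model). In chr8 first the libraries read 77.6% and 82.6% in WT and 41.2% and 47.4% in KO, a difference of -35.7 points (4.5e-07). In chr7 they read 67.0% and 71.1% against 31.7% and 40.7%, a difference of -33.4 points (1e-06). In all of these the genotypes did not overlap at 96 h. The chr17 tile read 57.4% and 55.8% in WT and 28.7% and 24.9% in KO, a difference of -29.7 points (3.6e-06). Its genotypes did not overlap either, and they were already apart at 24 h, at 78.7% and 79.9% in WT against 46.5% and 47.3% in KO (-32.5 points, 2.6e-06). Tested with limma on log2 ratios, where 129 of all tiles were called at 96 h in either direction, 0 of the 7 tiles were, with adjusted p from 0.062 to 0.95 and 5 tiles at an unadjusted p under 0.05.

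The chr8 first tile differed little between genotypes in serum. In serum it read 97.5% in WT and 96.7% and 96.5% in KO, and at 24 h 94.8% and 94.4% in WT and 92.1% and 80.5% in KO, differences of -0.963 points (adjusted p = 0.82, quasi-binomial model) and -7.98 points (0.066). At 48 h it read 92.5% and 88.8% against 66.1% and 61.7%, a difference of -26.3 points (1.7e-05). The chr10 second tile read 92.3% in WT and 90.2% and 86.0% in KO in serum, and 88.5% and 92.4% in WT and 67.8% and 75.7% in KO after 24 h (-19.6 points, adjusted p = 0.00018, quasi-binomial model, just under the 20 points a call needs), and it went on to 77.9% and 73.0% in WT and 54.6% and 48.6% in KO at 96 h (-24.1 points, adjusted p = 5.7e-06 in the same model).

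In the chr15 tile the order of the genotypes turned. WT read 97.1% in serum, 86.8% and 87.4% (24 h), 83.0% and 88.2% (48 h), 71.2% and 66.5% (72 h), 39.6% and 47.9% (96 h), and 20.5% and 20% (168 h). KO read 92.8% and 88.9%, 73.6% and 70.6%, 59.6% and 55.8%, 39.1% and 45.5%, 36.7% and 36.1%, and 64.9% and 44.8%. KO was below WT at every time up to 96 h and above it at 168 h. The difference was -29.6 points after 72 h (adjusted p = 8.5e-10, quasi-binomial model), -5.80 after 96 h (0.43) and 28.0 after 168 h (0.0026). At 168 h this was the only tile of 7 called higher in KO, where 0.463% of all tiles and 2.36% of sparser methylated tiles were. The 168 h libraries of KO held 37 and 172 calls in this tile, the smaller of them the fewest of any tile and library, and the tile was not called without the first WT library of 168 h or with limma.

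Within each UHRF1 genotype most tiles were called lower late in 2i than in serum. In UHRF1 WT, 6 of 7 tiles were called lower at 168 h than in serum (10.7% of all tiles and 88.0% of sparser ones), with only 1 serum library. In UHRF1 KO, 6 of 7 were called lower at 96 h than in serum (8.63% and 98.5%). Between 96 h and 168 h of KO, all 7 pooled differences were positive, from 0.0467 to 12.3 points. How many of all tiles rose was not counted. The mean over sparser methylated tiles also rose, from 37.2% to 45.4%. That over CpG-dense tiles under 20% in serum went from 0.511% to 0.908%. The KO libraries held 2.67 and 4.19 calls per position at 168 h, against 6.30 and 5.52 at 96 h. From 96 h to 168 h, 0 of the 7 tiles were called by the quasi-binomial model, which called 0.0485% of all tiles and 0.394% of sparser ones higher. At an unadjusted p under 0.05 the model had 3 of 7 tiles (chr7, chr8 second and chr15). As a percent of serum, the dense tiles differed from sparser ones in the same libraries by -0.0027 points on average in WT and by 2.77 points in KO. The WT average ran from -0.284 to 0.311 with single libraries left out, and without the chr10 first tile the averages were -3.10 in WT and 0.350 in KO.

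**Figure D3:**
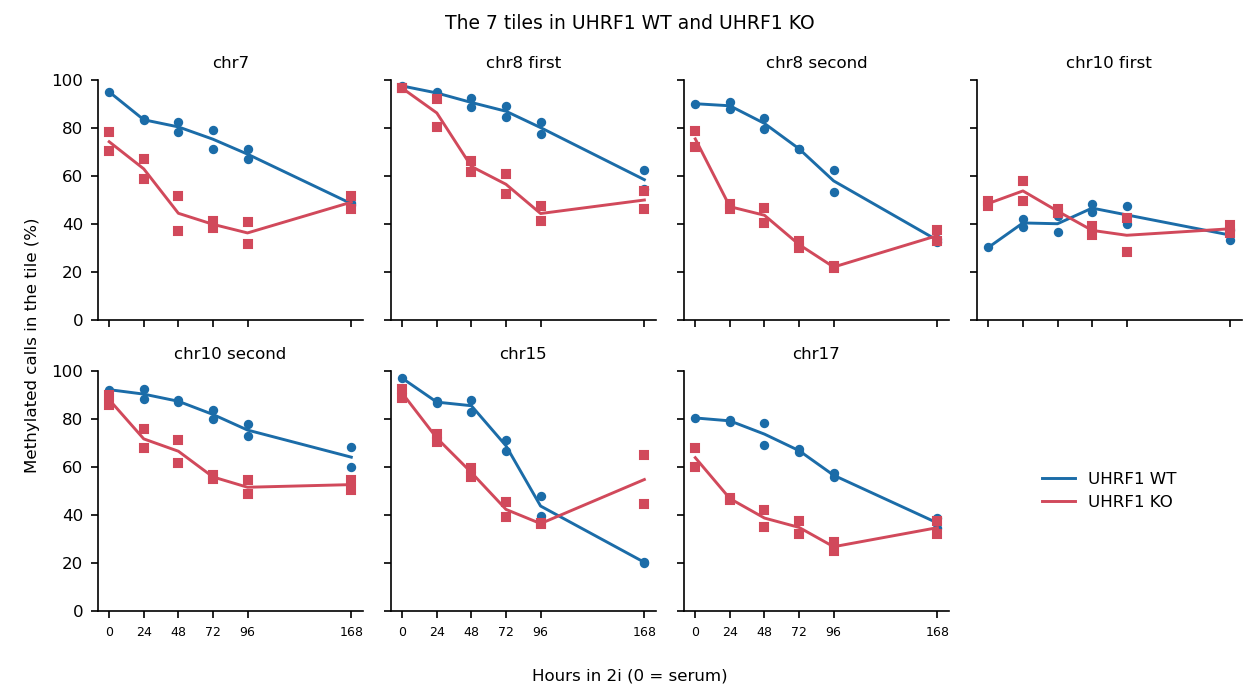
Methylated calls (percent, y axis) in each of the 7 tiles against hours in 2i (x axis, 0 is serum) in UHRF1 WT (blue circles) and UHRF1 KO (red squares). Points are single libraries and lines join their means. Red lies below blue from 48 h to 96 h in every panel but chr10 first, and above blue at 168 h in chr15.

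Comparing TET TKO with TET WT asks whether the tiles depend on oxidation of methylated cytosine. The mean over the 7 tiles was 48.8% ± 0.741 in TET WT in serum, 49.9% ± 0.547 (48 h), 38.1% ± 0.484 (96 h) and 21.1% (168 h, 1 library), with SD over 2 libraries. In TET TKO it was 70.2% ± 1.51, 64.6% ± 5.80, 52.8% ± 3.03 and 39.9% ± 0.208. All TKO libraries lay above all WT libraries of the same time, already in serum. Averaged over times, TKO minus WT was 17.4 points as a level. As a percent of the serum level, WT stood at 102.2% (48 h), 78.0% (96 h) and 43.3% (168 h) and TKO at 92.1%, 75.1% and 56.9%. TKO was thus lower at 48 h and 96 h and higher at 168 h. The differences of TKO minus WT average to 0.176 points, and to -6.53 points without the single WT library of 168 h. The 7513 sparser methylated tiles with enough calls in these lines stood at 68.5% ± 0.121 in WT and 85.4% ± 0.00334 in TKO in serum. As a percent of serum the sparser tiles had the same order of genotypes as the 7 tiles. They stood at 96.7% (48 h), 74.3% (96 h) and 50.2% (168 h) in WT and at 90.3%, 70.9% and 59.7% in TKO.

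In serum 4 of 7 tiles were called higher in TKO, where 14.1% of all 39358 tiles and 33.9% of sparser methylated tiles were called higher. At 48 h it was 2 of 7 (10% and 17.8%), at 96 h 3 of 7 (8.99% and 20.2%) and at 168 h 4 of 7 (12% and 39.3%). TET WT at 168 h is 1 library, so the spread in every test with it comes from the other groups, and that library is assumed to vary like them. At 96 h, limma on log2 ratios called 7.03% of all tiles in either direction and 0 of the 7, which is near that share. Adjusted p of the 7 ran from 0.063 to 0.99, with 3 tiles at an unadjusted p under 0.05. Some of the 96 h calls of the quasi-binomial model were lost without the first WT library of 96 h. The chr8 second and chr17 tiles were called at all 4 times, and how many of all tiles were was not counted. In chr17 TET WT read 34.9% and 37.3% in serum, 43.8% and 41.2% (48 h), 29.6% and 31.0% (96 h) and 14.9% (168 h), and TKO read 72.5% and 63.3%, 58.2% and 76.2%, 51.3% and 57.9%, and 45.0% and 37.4%. The genotypes were apart at each time, by 32.7 points in serum (adjusted p = 0.0002, quasi-binomial model) and 23.2 at 96 h (0.0035).

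In chr8 second TET WT read 38.8% and 42.2% in serum, 38.6% and 37.0% (48 h), 24.8% and 29.7% (96 h) and 7.81% (168 h). TKO read 65.6% and 72.7%, 70.1% and 71.2%, 48.1% and 50.3%, and 34.1% and 38.1%. No WT library reached the lowest TKO library of its time, and the differences were 28.5 points in serum (adjusted p = 2.7e-05, quasi-binomial model) and 21.7 at 96 h (0.00022). The chr15 tile read 52.6% and 50.6% in serum, 55.8% and 51.0% (48 h), 32.1% and 34.6% (96 h) and 9.31% (168 h) in WT. In TKO it read 85.9% and 85.4%, 65.0% and 80.2%, 51.2% and 63.9%, and 43.9% and 55.9%. It differed by 34.0 points in serum (adjusted p = 0.00027, same model) and by 21.8 at 96 h (0.0095), and was past p but at 19.96 points just short of the minimum at 48 h (0.03).

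The chr7 tile read 48.2% and 45.5% in WT and 73.2% and 77.7% in TKO in serum, a difference of 28.2 points (adjusted p = 1.2e-05, quasi-binomial model). Its later differences of 12.4 to 16.3 points stayed under 20. The chr10 second tile read 73.3% and 77.6% in WT and 82.7% and 84.7% in TKO in serum (8.25 points, adjusted p = 0.014, quasi-binomial model) and 64.9% and 60% against 65.6% and 68.7% at 96 h (4.25 points, adjusted p = 0.31 in the same model). The chr8 first tile differed by 6.11 points in serum (0.12) and by 20.2 at 168 h (0.0013), where WT read 30.3% and TKO 51.8% and 45.4%. These 2 tiles had the smallest serum differences of the 7 and were the only ones over 70% in TET WT in serum.

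Both genotypes lost methylation in 2i. At 168 h against serum, 5 of 7 tiles were called lower in TET WT (20.1% of all tiles, 80.5% of sparser ones) and 6 of 7 in TET TKO (26.2% and 92.8%). As a share of the serum level, TET TKO tiles kept 52.2% to 60.6% at 168 h, where the sparser tiles had a median of 59.1% and 10th and 90th percentiles of 44.7% and 74.4%. In TET WT 6 tiles kept 18.1% to 60.3%, and chr10 first, which was low from the start, stood at 141.5% of its serum level. The sparser tiles of TET WT had a median of 47.0% and percentiles of 18.8% and 78.3%, also wider than in TKO. The difference between these ranges was not tested. Within TKO libraries the dense tiles differed from sparser ones by 1.06 points on average as a percent of serum, upward in 3 of 6 libraries. This average turned negative without the first serum library, the second of 48 h or the second of 96 h, with a range of -0.309 to 2.22 over single libraries left out.

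**Figure D4:**
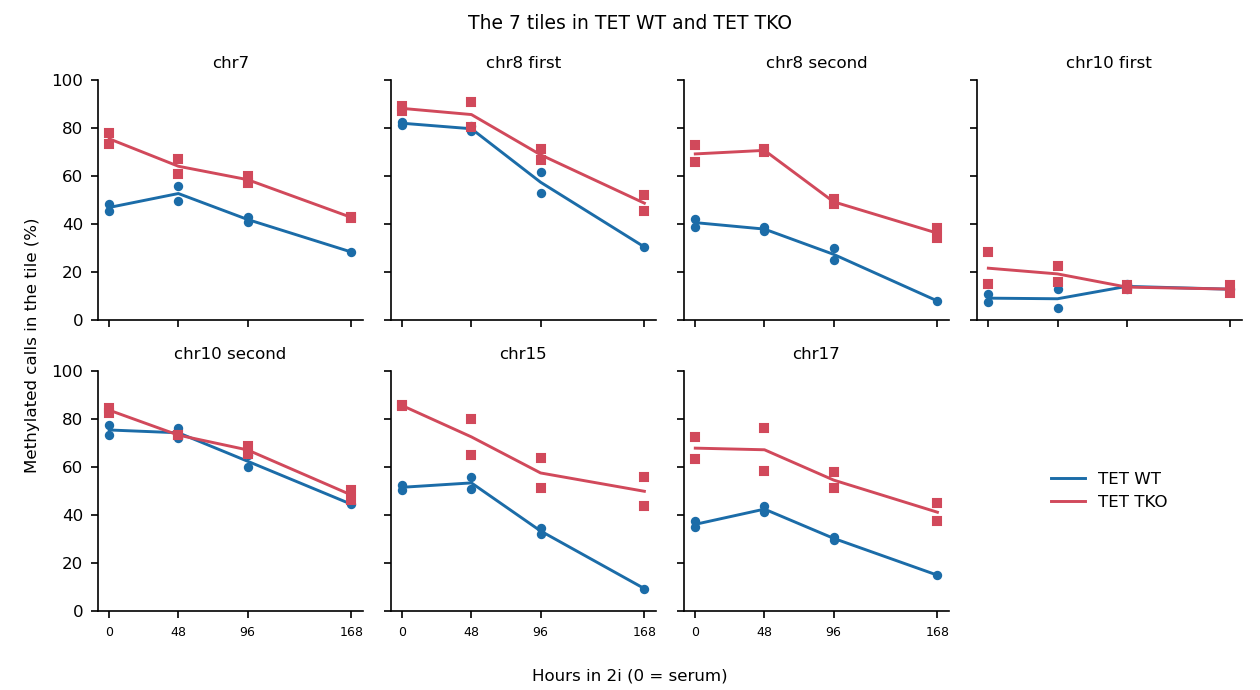
Methylated calls (percent, y axis) in each of the 7 tiles against hours in 2i (x axis, 0 is serum) in TET WT (blue circles) and TET TKO (red squares). Points are single libraries and lines join their means, with 1 library for TET WT at 168 h. Red lies above blue at all times in chr7, chr8 second, chr15 and chr17, and the lines of chr10 second lie close together.

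The Plagl1 tile stood at different levels in the lines. Its serum libraries read 88.5% and 88.0% in E14, 30.1% in UHRF1 WT, 47.3% and 49.7% in UHRF1 KO, 7.40% and 10.6% in TET WT, and 14.9% and 28.1% in TET TKO. The 5 lines did not overlap, and the E14 value is one that chose the tile. Line, strain background and culture history cannot be told apart here, and the UHRF1 lines carry the E14 label of background. No test between lines was made.

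In UHRF1 WT the Plagl1 tile read 38.8% and 41.9% (24 h), 36.7% and 43.4% (48 h), 44.9% and 48.2% (72 h), 40.1% and 47.4% (96 h), and 37.2% and 33.3% (168 h). In UHRF1 KO it read 57.9% and 49.6%, 44.6% and 46.0%, 39.1% and 35.5%, 28.1% and 42.3%, and 39.6% and 36.2%. KO was above WT in serum and at 24 and 48 h, below it at 72 h, and the genotypes overlapped at 96 h and 168 h. At 48 h the pooled difference was 5.07 points and did not pass (adjusted p = 0.58, quasi-binomial model). The pooled difference was 18.6 points in serum (adjusted p = 0.0051, quasi-binomial model), 15.1 after 24 h (0.018), -7.34 after 72 h (0.022) and -8.50 after 96 h (0.15), all under 20 points. From serum to 96 h, UHRF1 WT differed by 13.1 points (0.0035) and UHRF1 KO by -14.0 (0.014), both past the adjusted p but under 20 points. From serum to 168 h the differences were 5.93 points (0.29) and -11.6 (0.098).

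TET WT read 4.74% and 12.7% (48 h), 12.8% and 15% (96 h) and 12.7% (168 h) in the Plagl1 tile, and TET TKO 15.6% and 22.6%, 14.5% and 12.7%, and 11.02% and 14.5%. TKO lay above WT in serum, by 11.7 points (adjusted p = 0.016, quasi-binomial model), and at 48 h by 10.0 (0.085), and the genotypes overlapped at 96 h, with a difference of 0.208 points (1). Single CpGs were also measured in the promoter printed above. At its 11 CpGs with enough calls, E14 in serum ranged from 83.3% to 96.7% and E14 at 168 h from 43.8% to 84.4%. TET WT in serum ranged from 5.88% to 23.1% at 11 CpGs, UHRF1 WT at 96 h from 31.3% to 50.0% at 7, and UHRF1 KO at 96 h from 13.3% to 61.5% at 11.

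**Figure D5:**
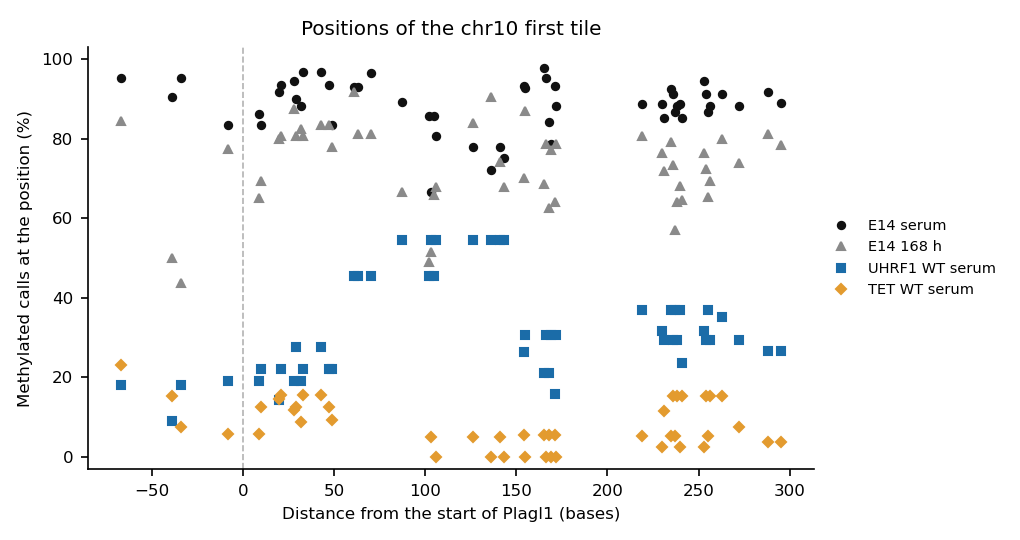
Methylated calls (percent, y axis) at positions of the chr10 first tile with 5 or more calls, by distance from the start of Plagl1 (x axis, bases, dashed line at the start). Black circles are E14 in serum, gray triangles E14 at 168 h, blue squares UHRF1 WT in serum and orange diamonds TET WT in serum, each pooled over its libraries. E14 in serum ranges from 66.7% to 97.7%, UHRF1 WT from 9.09% to 54.5% and TET WT from 0% to 23.1%.

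RNA-seq of E14 bears on the 1 tile with gene starts. Values are log2 per gene, corrected by the authors for length and depth. Plagl1 stood at -0.54, -0.90 and -0.34 in serum, 0.69, 0.71 and 1.01 (6 h), 0.42, 0.15 and 1.03 (24 h), and 1.84, 1.13 and 2.17 (72 h). Its serum libraries were all below those in 2i, and the 72 h libraries were above all others. The log2 difference was 1.39 at 6 h (SE 0.28, adjusted p = 0.0062) and 2.31 at 72 h (SE 0.28, adjusted p = 5.2e-05, limma over 12306 genes), where 25.5% of genes were higher. At 72 h the tile itself read 84.2% and 81.7%, against 88.5% and 88.0% in serum. Hymai has no row under that name in the expression table.

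Genes near the other tiles moved less or in different directions at 72 h. Prickle1 differed by -0.64 on the log2 scale (SE 0.20, adjusted p = 0.022, limma). Earlier it differed more, by -0.89 at 6 h (adjusted p = 0.012, limma) and -1.64 at 24 h (6e-05). Plagl1 differed by 1.13 at 24 h (adjusted p = 0.0052, limma). At 72 h Traf7, an E3 ubiquitin ligase, differed by -0.37 (SE 0.13, adjusted p = 0.032). Nt5dc3, whose start is 130001 bp from its tile, differed by 1.18 (SE 0.25, adjusted p = 0.0027). Lmtk3 (-0.33, adjusted p = 0.31) and Ing2 (0.10, adjusted p = 0.56) did not pass in this limma fit, which had no term for the replicate number. BC048644 was too low to be tested, with group means from -5.56 to -4.26. Markers of ESCs were over 0 in every library for 8 of 8 genes, with serum means from 5.28 to 8.29. Markers of other cell types were so for 3 of 12, with serum means from -3.30 to 5.85, so the ranges of the lists overlap. These 3 were Col1a1, Thy1 and Vim, all listed as fibroblast or feeder markers. Col1a2 of the same list was under 0 in every library.

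Histone data cover the same promoter thinly. In the 2-kb bin over the start of Plagl1 (chr10:13090001-13092000 in GRCm38), log2 reads of H3K9me2 ChIP, a histone mark tied to silent chromatin, were 0.29 and 0.19 in serum, 2.71 and 2.97 at 24 h, and 0.36 and 1.57 in long-term 2i. The 3 inputs read 4.52, 4.46 and 4.59, near the median of their bins, and the bound libraries were below their inputs in all media on this scale. The value of 0.19 is the lowest that library holds. These are values of 1 bin, with no test. Bisulfite sequencing of H3K9me2-bound DNA gave 1 to 62 calls per library over all 7 tiles, in at most 2 of them, and no level was computed from it.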

How the data were processed

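RRBS and ChIP followed by bisulfite sequencing were read from the deposited files, which give methylated and unmethylated call counts and their percent per cytosine, made by the authors with Bismark (0.12.3 in the submitters' processing notes, with Trim Galore 0.3.5) on NCBIM37. Libraries held 9581412 to 30654219 calls in E14, 3208182 to 43553751 in the UHRF1 lines and 5594622 to 43706248 in the TET lines. Calls were summed over tiles of 500 bp. The members and gene lists were chosen with earlier results of these data known, and tiles described singly were those with the most positions, the 4 highest and 4 lowest 168 h levels (which take in all 7), the largest called differences at 96 h and those nearest the thresholds.

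Tiles with 20 or more calls and 3 or more positions in every library of a set were fitted with a quasi-binomial model in R 4.3.3. Its dispersions were moderated by limma 3.58.1, and the fit was tested on simulated data. Differences in points are of calls pooled over replicates, and group levels are means of replicates. No p is given for a mean over the 7 tiles. For RNA-seq and ChIP-seq the authors deposited log2 values on GRCm38, and limma was run on genes over 0 in 3 or more of 12 libraries. Libraries with the same replicate number did not deviate together in RRBS (0 of 15, 55 and 21 pairs over r = 0.1) and were not treated as pairs. Alternatives are in the closing section.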

Additional observations from a re-analysis of the deposited data

Results flagged for a closer look

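In 2 tiles libraries of UHRF1 KO and UHRF1 WT did not overlap, in one direction at some times and in the other at others. How many of all tiles do so was not counted. UHRF1 WT in serum is 1 library. In the chr10 first tile at the start of Plagl1, UHRF1 KO minus UHRF1 WT was 18.3 points in serum, 13.4 (24 h), 5.27 (48 h) and -9.30 (72 h). In the chr15 tile the same difference was -6.24 points in serum, -15 (24 h), -27.9 (48 h), -26.5 (72 h) and -7.32 (96 h), and then 34.6 (168 h). These values are differences of replicate means. Among the 2i times, the pooled difference did not pass for chr10 first at 48 h (5.07 points, adjusted p = 0.58, quasi-binomial model). Nor did it for chr15 at 96 h (-5.80 points, 0.43). The change of the difference over time was not tested.

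In the same chr10 first tile, libraries of 168 h lay below those of serum in E14 and above them in UHRF1 WT and TET WT. The difference of means was -14.2 points in E14, 5.13 in UHRF1 WT and 3.73 in TET WT. The E14 serum level chose the tile for being high, and the serum levels of the other lines did not, so these values are not on an equal footing. In the quasi-binomial model the latter 2 did not pass (pooled differences of 5.93 and 4.01 points, adjusted p = 0.29 and 0.44), and each has an arm of 1 library, UHRF1 WT in serum and TET WT at 168 h. The pooled difference was -11.6 points in UHRF1 KO (adjusted p = 0.098, quasi-binomial model) and -8.77 in TET TKO (adjusted p = 0.036), the latter past the adjusted p but under 20 points. The difference between lines was not tested.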

How the results depend on the processing

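With 7 tiles, other thresholds move most values. The dense minus sparse difference in E14 (-4.12 points of the 24 h level) was -2.59 with 20 or more positions, -1.91 with serum at 70% or more, -1.27 with calls pooled over tiles and, added after seeing the data, -8.37 without the chr10 first tile. It turned positive with 40 or more positions (19.3, the chr10 first tile alone) and against serum (2.51), the level that chose the tiles. In UHRF1 WT it was -0.0027 points and became 56.8 with 40 or more positions, 2.23 with serum at 70%, 2.38 pooled and -3.10 without chr10 first. In UHRF1 KO it was 2.77 and became -0.951 with 50 or more calls, 27.2 with 40 positions, 6.27 with serum at 70% and 0.350 without chr10 first.

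UHRF1 KO minus WT (-16.8 points) was -21.0 with 20 positions, 3.64 with 40, -10.1 with serum at 70% and -20.2 without chr10 first, and as percent of serum (-17.8) it was -20.4 with 50 calls and -50.2 with 40 positions. TET TKO minus WT (17.4) was 5.65 with 40 positions, 12.4 with serum at 70% and 14.3 pooled, and as percent of serum (0.176) -60.6 with 40 positions. The E14 correlation with hours was -0.860 with 40 positions, -0.978 with serum at 50%, -0.990 at 70% and -0.980 at positions with 5 or more calls in every sample.

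With 20 or more positions, tiles called numbered 48 of 51 in E14, 45 of 49 in UHRF1 at 96 h, 6 of 49 at 168 h, 25 of 51 in TET serum and 15 of 51 at 96 h. With 40 positions, which left the chr10 first tile, all 5 counts were 0 of 1 (quasi-binomial model); at an unadjusted p under 0.05 that tile passed in E14, UHRF1 at 96 h and TET serum but not in UHRF1 at 168 h or TET at 96 h. With serum at 70% they were 3, 2, 1, 1 and 1 of 4. Limma on log2 ratios called 0 in UHRF1 at 96 h and 168 h and in TET at 96 h, with 5, 1 and 3 tiles at an unadjusted p under 0.05. Among all tiles it called 0.568%, 0.242% and 7.03% in these comparisons. With 50 or more calls the chr15 tile, which carries the 168 h call, was filtered out, and 0 of the other 6 were called there. Positions with 5 or more calls in every sample gave 2 of 6 in TET serum and 1 of 6 at 96 h. In the UHRF1 lines none of the tiles had enough calls at such positions to be tested. Across 262 settings for single tiles, no tile called in the main or the other fit changed direction, with 15 losing their call and 1 gaining it. Changes of direction in tiles called in neither fit were not counted.

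Leaving out 1 library gave -0.987 to -0.976 for the correlation, -4.94 to -3.60, -0.284 to 0.311, 1.87 to 3.69 and -0.309 to 2.22 for dense minus sparse in E14, UHRF1 WT, UHRF1 KO and TET TKO, -18.8 to -16.3 and -18.5 to -17.1 for UHRF1 KO minus WT, and 16.4 to 18.5 and -6.53 to 2.12 for TET TKO minus WT. Counts ran from 6 to 7 in E14, 5 to 5 and 0 to 1 in UHRF1, 4 to 4 in TET serum and 1 to 3 at 96 h (1 without the first WT library of 96 h), and Plagl1 RNA from 2.08 to 2.60. With the replicate number as a block, a pairing that RRBS did not show, counts were 6, 5, 1, 4 and 3 as before, and Plagl1 was at 2.31 (adjusted p = 2.2e-06, limma). In RNA, 15 of 18 same-number pairs correlated over 0.1. The chr15 tile held as few as 37 calls in a library.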
